A study of Mus musculus with 2 samples.

Results

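The glycolytic route from glucose uptake to pyruvate, its branch to lactate and its entry into the mitochondrion were followed through 38 genes in the embryonic mouse heart. The genes were taken by symbol and stable Ensembl identifier, and all 38 were found among the 43346 Ensembl genes of both libraries. They cover 16 steps: glucose transporters, the enzymes from hexokinase to lactate dehydrogenase, the fructose-2,6-bisphosphate enzymes, lactate transporters, and the pyruvate dehydrogenase complex with its kinases. At 11 of these steps several genes encode alternative isozymes, so that a share can be given for each.

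RNA labelled as total RNA from whole hearts of strain B6NCrl at embryonic day 15.5 was sequenced in 2 libraries of 1 group. Replicate 1 pooled the hearts of 78 embryos and replicate 2 those of 62, of both sexes, with no genetic change or treatment named in the labels. Each library started from 10 ng of RNA longer than 200 nt with spike-in RNA added. Every spread given here is therefore a spread between pools of embryos, and the expression of single embryos or of single cell types within the heart was not measured.

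Glycolysis splits glucose to pyruvate in the cytosol and yields ATP without oxygen. Pyruvate is then either reduced to lactate, which leaves the cell through monocarboxylate transporters, or oxidised to acetyl-CoA by the pyruvate dehydrogenase complex in mitochondria. The fetal heart, which works at low oxygen, is known to rely more on glucose and lactate than the adult heart, which burns mainly fatty acids, and many steps are served by isozymes that differ between embryonic and adult or muscle and non-muscle tissue.

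The libraries of replicates 1 and 2 summed to 41883313 and 39697992 expected counts. At an effective length of 1 kb, 1 read was worth 0.0308 and 0.0345 TPM, a level per length of transcript scaled to a fixed sum in each library. The heart label was met by the 8 cardiomyocyte markers, all at 1 TPM or more, with summed levels of 25940 and 22400 TPM in replicates 1 and 2. Blood was part of both samples: the 8 erythroid markers summed to 121700 and 116800 TPM. The libraries stood apart in markers of neighbouring tissues. Summed TPM in replicates 1 and 2 was 51.6 and 224.3 for 8 liver markers, 12.0 and 65.8 for 8 neuron markers, 11 and 107.6 for 5 thymocyte markers, 127.4 and 316.4 for 4 lung epithelium markers and 165.2 and 265.1 for 9 macrophage and neutrophil markers. Most of the lung sum was Sftpc (118 and 276 TPM), and the largest part of the liver sum was Trf (31.5 and 104 TPM). Still, all 8 liver and all 4 lung markers were higher in replicate 2 by 1.5-fold after scaling of the libraries. Of the other lists, fibroblast markers (6 genes) summed to 2276 and 2759 TPM, endothelial (6) to 332.6 and 384.4, adipocyte (4, with Plin1 and Cidec at 0) to 263.6 and 152.6, skeletal muscle (9, with Pax7 at 0) to 163.0 and 160.2, and astrocyte and brain (5, with Olig2 at 0) to 9.23 and 7.2. In replicate 1 nearly all of these last 3 sums came from 1 gene each, Fabp4 (264 TPM), Acta1 (152 TPM) and Aqp4 (8.88 TPM), so they do not measure those cell types. What these cells add to the level of each glycolysis gene was not tested, and in a bulk sample fewer cells of a type and less RNA per cell cannot be told apart.

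Together the 38 genes held 1.71% of all TPM in replicate 1 and 1.61% in replicate 2. Of the 38, 36 reached 1 TPM in both libraries, against 58.2% of the 21474 protein-coding genes. The exceptions were Hk3 and Pklr, isozymes known from leukocytes and from liver and red cells. The median member stood at 109.4 TPM, against 15.8 TPM for protein-coding genes detected in both libraries. Among the 1000 protein-coding genes of highest level, 18 of the members were found in both libraries. Mean levels spanned from 0.285 TPM for Pklr to 3292 TPM for Gapdh.

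**Figure D1:**
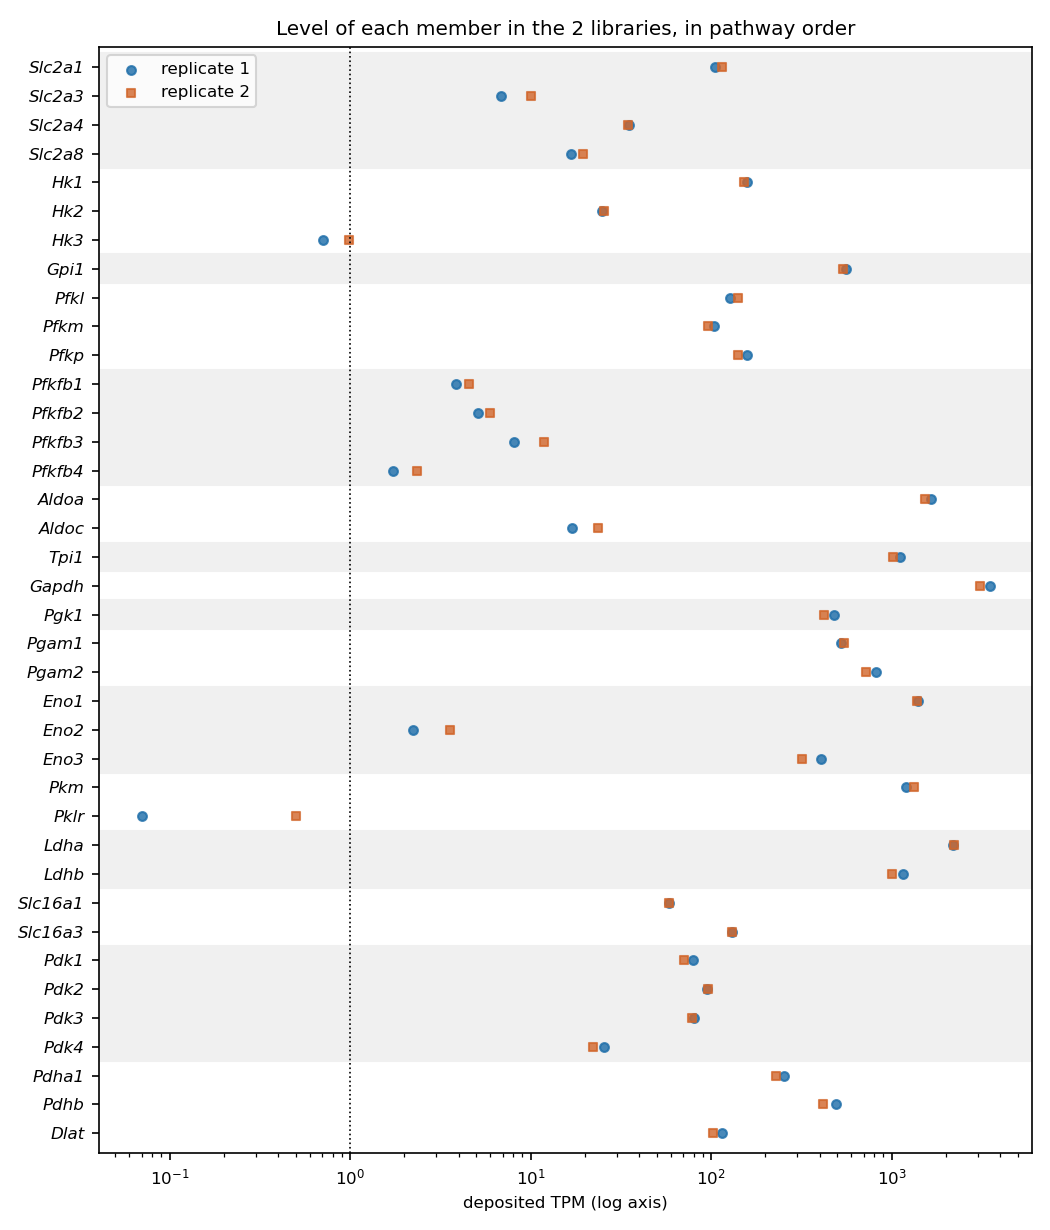
Deposited TPM (log axis) of each of the 38 genes in pathway order, with circles for replicate 1 and squares for replicate 2; shaded bands separate steps and the dotted line marks 1 TPM. Gapdh and Ldha lie highest and Hk3 and Pklr lowest, the only members under 1 TPM.

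Summed over isozymes, the steps before aldolase were lower than most of those after it. Glucose transporters summed to 165 and 179 TPM in replicates 1 and 2, hexokinases to 183 and 180 TPM, and phosphofructokinases to 390 and 380 TPM. Aldolases reached 1673 and 1551 TPM, enolases 1815 and 1715 TPM, and lactate dehydrogenases 3358 and 3213 TPM. The steps at which glucose is admitted and committed thus had lower sums than these. Gpi1, the isomerase between hexokinase and phosphofructokinase, lay between phosphofructokinase and aldolase with 557 and 540 TPM. Some later steps were low as well. Phosphoglycerate kinase, with 481 and 423 TPM, was below Gpi1. The lactate transporters, with 189 and 188 TPM, and the pyruvate dehydrogenase kinases, with 280 and 267 TPM, were below phosphofructokinase. The sums for glucose transport (172 ± 10.1 TPM, SD, n = 2) and hexokinase (181 ± 2.35 TPM) differed by less than the spread of the former.

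Slc2a1, the widely expressed basal glucose transporter GLUT1, led uptake with 106 TPM in replicate 1 and 115 TPM in replicate 2. Slc2a4, the insulin-responsive GLUT4 of adult muscle and fat, had 35.3 and 34.55 TPM. Slc2a8, an intracellular transporter, had 16.8 and 19.4 TPM, and Slc2a3, the high-affinity GLUT3 of neurons and placenta, had 6.90 and 10.0 TPM. The order was the same in both libraries, and no neighbours in it overlapped. Slc2a1 held 64.2% ± 0.0321 (SD, n = 2) of the transporter TPM and exceeded Slc2a4 by 2.99-fold and 3.32-fold. Slc2a3 had 843 counts in replicate 1 and 1027 in replicate 2, the library in which neuron markers were also higher; their part in it was not tested.

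Hexokinase traps glucose in the cell as glucose-6-phosphate. Hk1, the form of brain, red cells and fetal tissue, was at 157 and 153 TPM, and Hk2, the insulin-regulated muscle form, at 24.99 and 25.5 TPM. Hk1 held 85.6% ± 0.507 (SD, n = 2) of the step, a log2 ratio over Hk2 of 2.62 ± 0.0491. The Hk2 level rests in large part on a short noncoding model. Hk2-202, of 594 bases, carried 47.8% and 56.8% of the TPM of Hk2 but only 7.72% and 10.7% of its counts, because a few reads on a short model weigh heavily per length. With protein-coding transcripts alone Hk2 was at 13.1 and 11.04 TPM, and the log2 ratio of Hk1 to Hk2 was 3.58 and 3.77. Hk3 was at 0.710 TPM (exact 95% counting interval 0.540 to 0.916) and 0.990 TPM (0.776 to 1.24).

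Phosphofructokinase, the committed step, was the step at which the leading gene differed between the libraries. Pfkp, the platelet form, had 158 and 141 TPM, Pfkl, the liver form, 127 and 141 TPM, and Pfkm, the muscle form, 104 and 96.8 TPM. In replicate 1 Pfkp led, with 40.5% of the step, and in replicate 2 Pfkl held 37.3% and Pfkp 37.2%. The log2 ratio of Pfkp to Pfkl was 0.154 ± 0.220 (SD, n = 2), smaller than its spread. Pfkm was lowest in both libraries, at 26.1% ± 0.918. Pfkp was also the member whose noncoding models mattered at this step: its coding transcripts held 76.1% and 69.5% of its TPM, and on coding transcripts Pfkl led in both libraries, with 125 and 140 TPM against 120 and 98.2 TPM for Pfkp.

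The Pfkfb enzymes make and remove fructose-2,6-bisphosphate, the strongest activator of phosphofructokinase. All 4 were low, with a sum of 18.8 and 24.8 TPM. Pfkfb3, the form with the highest kinase over phosphatase activity, led with 8.05 and 11.9 TPM. Pfkfb2, the heart form of the adult, had 5.10 and 5.94 TPM, Pfkfb1, the liver and muscle form, 3.87 and 4.59 TPM, and Pfkfb4 1.74 and 2.36 TPM. The order held in both libraries and Pfkfb3 held 45.5% ± 3.62 (SD, n = 2) of the sum. Without division by length Pfkfb1 dropped below Pfkfb4, with 139 and 176 counts against 183 and 221. On coding transcripts Pfkfb1 passed Pfkfb2 in replicate 2, with 3.45 against 2.71 TPM, but not in replicate 1, with 2.89 against 3.20 TPM.

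Aldoa, the muscle and ubiquitous aldolase, stood at 1656 and 1528 TPM and Aldoc, the brain form, at 17.0 and 23.7 TPM. Aldoa thus held 98.7% ± 0.360 (SD, n = 2) of the sum. Tpi1, which interconverts the triose phosphates made by aldolase, followed with 1119 and 1024 TPM. Tpi1 has no isozyme.

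Gapdh, which oxidises glyceraldehyde-3-phosphate and is often used as a reference gene, had the highest value of the 38 genes, 3493 and 3091 TPM. Most of that value belonged to 1 short noncoding model. Gapdh-208, a processed transcript of 483 bases, was given 63.8% and 55.5% of the TPM of Gapdh, but 34.0% and 26.9% of its counts. The main coding transcript, of 1420 bases, held 64.5% and 67.2% of the counts. On coding transcripts Gapdh came to 1245 and 1346 TPM, so that replicate 2 was the higher library there and the lower one on the gene level. On that scale Ldha, at 2182 and 2196 TPM, had the highest level of the 38 genes. A further 164 pseudogene copies of Gapdh, of at least 90% identity to a Gapdh transcript, held 184 and 217 TPM, or 6.21% and 7.45% of the counts of gene and copies together. How reads were divided between gene, model and copies is an estimate in these files.

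Pgk1, the first ATP-making step, was at 481 and 423 TPM. It had the most uncertain count among the abundant members: 2 processed pseudogenes, Pgk1-rs7 and Gm5537, held 10.1% and 15.6% of the counts of gene and copies together, and the posterior SD of its count was 0.837% and 1.29%. Pklr was the 1 other member for which that SD passed 1% in either library. Phosphoglycerate mutase, which moves the phosphate group before enolase, was split. Pgam2, the muscle form, had 822 and 720 TPM and Pgam1, the brain and ubiquitous form, 527 and 544 TPM. Pgam2 held 59.0% ± 2.78 (SD, n = 2). This order depends on length. The Pgam2 transcript has 840 bases and that of Pgam1 1831, and by counts Pgam1 was higher, with 29648 and 27307 against 19772 and 15475.

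Eno1, the ubiquitous enolase, had 1407 and 1392 TPM, and Eno3, the muscle form, 406 and 319 TPM. Eno1 held 79.3% ± 2.59 (SD, n = 2), a ratio of 3.47-fold and 4.36-fold over Eno3. Eno2, the neuronal form, was at 2.23 and 3.57 TPM. Its most abundant model was a retained intron with 40.1% and 43.5% of its TPM, so on coding transcripts Eno2 was 1.24 and 1.54 TPM.

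**Figure D2:**
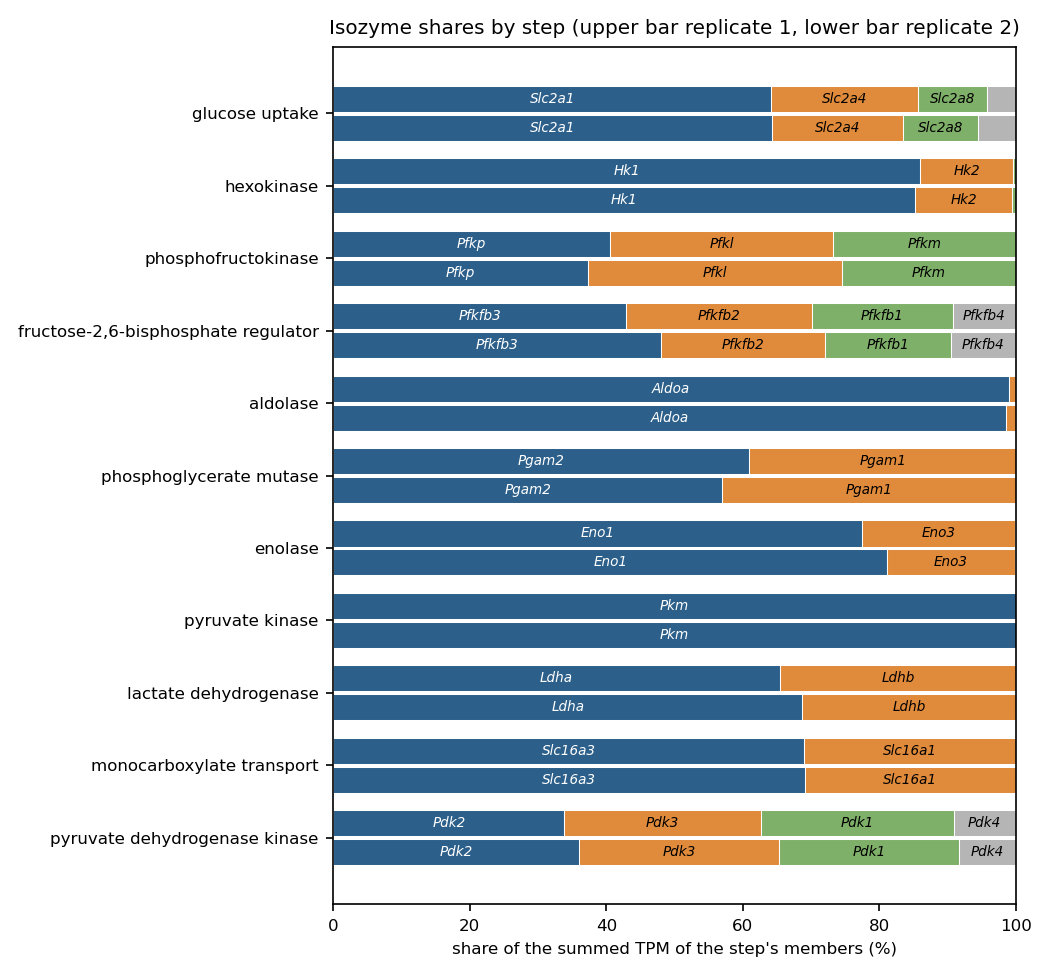
Share of the summed TPM held by each isozyme at 11 steps, with the upper bar for replicate 1 and the lower bar for replicate 2; grey at glucose uptake is Slc2a3, and shares under 8% carry no name. A single gene holds nearly all of aldolase and pyruvate kinase, while phosphofructokinase and the pyruvate dehydrogenase kinases are divided among 3 or more.

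Pyruvate kinase, the last step of glycolysis, came almost entirely from Pkm, with 1204 and 1331 TPM. Pkm makes 2 enzymes by choosing 1 of 2 neighbouring exons. The M1 form is known as constitutively active and typical of adult muscle, heart and brain, and the M2 form, which is under allosteric control, as typical of embryonic and proliferating cells. The exons are shown because the TPM of Pkm was divided by which of them a transcript holds. Each is exon 9 of its transcript, 167 bases long and on the plus strand of mm10, with M1 at chr9:59675029-59675195 and M2 at chr9:59675568-59675734, read from the GENCODE M21 models of the same transcript identifiers. Capitals mark the 64 positions at which they differ.
M1 exon: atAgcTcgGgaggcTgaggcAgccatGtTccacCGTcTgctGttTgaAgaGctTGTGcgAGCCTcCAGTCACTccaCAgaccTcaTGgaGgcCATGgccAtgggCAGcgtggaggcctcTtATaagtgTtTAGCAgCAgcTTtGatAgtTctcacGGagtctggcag
M2 exon: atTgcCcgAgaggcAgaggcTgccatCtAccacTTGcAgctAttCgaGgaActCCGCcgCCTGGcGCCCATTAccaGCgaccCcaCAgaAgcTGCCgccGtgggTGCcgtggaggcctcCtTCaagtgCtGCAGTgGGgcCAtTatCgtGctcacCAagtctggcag
The exons share 61.7% of their bases, and differences are spread over their whole length. Reads within either exon can therefore be told apart, whereas reads in parts that the transcripts share cannot. The M1 transcript held 73.8% of Pkm TPM in replicate 1 and 67.8% in replicate 2, that is 888 and 903 TPM. The M2 transcript held 26.2% and 32.2%, that is 316 and 428 TPM. M1 was thus the larger form in both pools, and the M2 share was 29.2% ± 4.2 (SD, n = 2). The 2 transcripts are equally long, 2432 bases, so the shares are the same by counts.

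Of 8 genes linked to the choice between the exons, all were detected. Hnrnpa2b1, which represses the M1 exon, was highest with 552 and 559 TPM, and Ptbp3 was lowest by mean with 19.6 and 26.7 TPM. Ptbp1, a repressor of the M1 exon, stood at 73.9 TPM in replicate 1 and 131 TPM in replicate 2, a log2 ratio of 0.62 after scaling of the libraries, and was the 1 gene of the 8 higher by 1.5-fold, against 11.2% of all genes tested. The library with more Ptbp1 was also the one with the higher M2 share; with 2 libraries a relation between them was not tested. Srsf3, which favours the M2 exon, had 369 and 385 TPM. After the same scaling, log2 ratios were −0.21 for Hnrnpa2b1, −0.20 for Hnrnpa1, −0.16 for Srsf3 and −0.07 for Ptbp3. They were −0.33 for Ptbp2 and −0.04 for Nek2, and besides Ptbp1 only Rbm4 lay above 0, at 0.13. The median of the 8 genes was −0.12, so the list as a whole did not follow Ptbp1.

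Pklr, the pyruvate kinase of liver and red cells, was at 0.0700 TPM (exact 95% counting interval 0.0244 to 0.145) and 0.5 TPM (0.353 to 0.679). That is 6 and 39 rounded counts, a scaled ratio of 6.18-fold (exact 95% interval 2.60 to 17.9, counting error only). All 8 liver markers and the erythroid factor Klf1 (0.900 and 4.04 TPM) were also higher in replicate 2. Their part in the Pklr value was not tested.

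**Figure D3:**
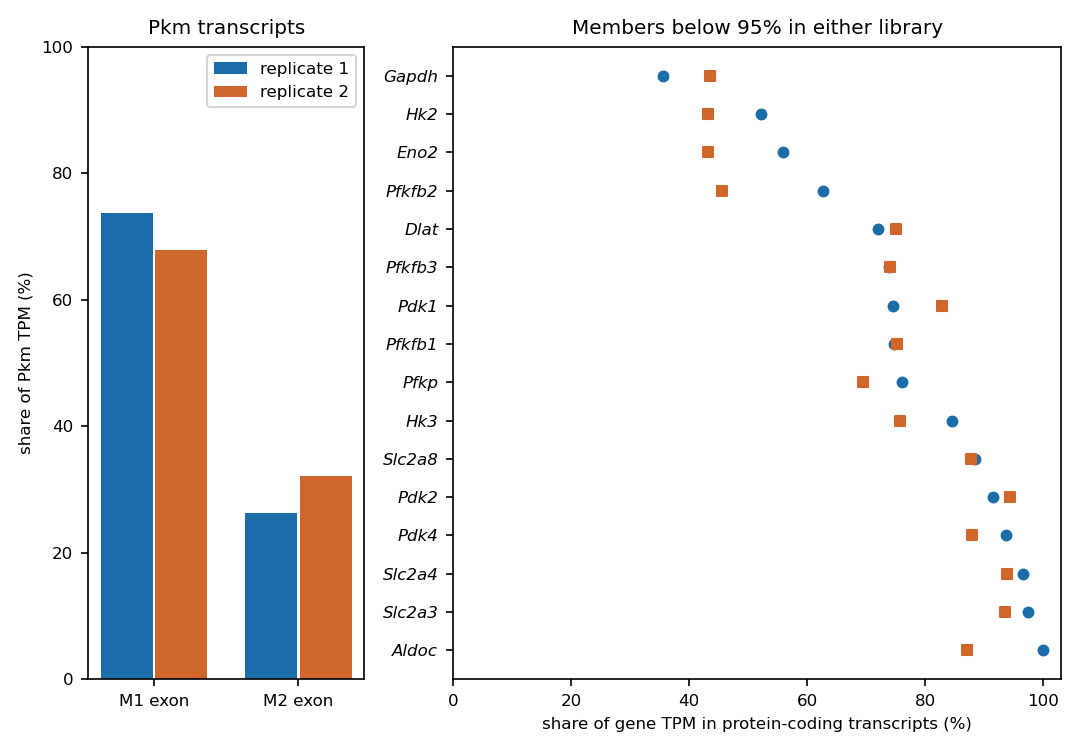
Left, share of Pkm TPM (%) in the transcript with the M1 exon and in that with the M2 exon, with 1 bar for each library. Right, share of gene TPM (%) in protein-coding transcripts for the members below 95% in either library, with circles for replicate 1 and squares for replicate 2; Gapdh is lowest in replicate 1, at 35.6%, and M1 exceeds M2 in both libraries.

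Lactate dehydrogenase links pyruvate to lactate. Ldha, the muscle form that favours lactate formation, was at 2196 and 2207 TPM, and Ldhb, the form of the adult heart, at 1162 and 1005 TPM. Ldha held 67.0% ± 2.34 (SD, n = 2) of the step. The ratio of Ldha to Ldhb was 1.89-fold and 2.195-fold. In deposited TPM Ldha was nearly equal in both pools and Ldhb lower in replicate 2. After scaling of the libraries both were lower there, with log2 ratios of −0.22 for Ldha and −0.45 for Ldhb. Of the lactate carriers, Slc16a3, the exporter MCT4 of glycolytic cells, had 130.0 and 129.9 TPM, and Slc16a1, the widespread MCT1, had 58.6 and 58.2 TPM. Slc16a3 held 68.99% ± 0.0960 by TPM, but 51.4% of the counts, with 8728 and 7702, since its transcripts are shorter. Bsg, the chaperone that brings both carriers to the membrane, was the highest of 43 further pathway genes, with 826 and 836 TPM.

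Pyruvate enters the mitochondrion through the carrier made of Mpc1 and Mpc2, with 246 and 201 TPM for Mpc1 and 310 and 194 TPM for Mpc2. The pyruvate dehydrogenase complex then makes acetyl-CoA. Its E1 subunits differed: Pdhb, the beta subunit, had 494 and 415 TPM, and Pdha1, the alpha subunit that carries the regulatory phosphorylation sites, 253 and 228 TPM. Dlat, the E2 core, had 115 and 102 TPM. Pdhb exceeded Pdha1 by 1.95-fold and 1.82-fold and Dlat by 4.29-fold and 4.06-fold, in the same order in both libraries. Dld, the E3 subunit shared with other complexes, had 217 and 169 TPM and Pdhx, the E3-binding protein, 51.9 and 46.2 TPM. The order of the E1 subunits depends on length: their main transcripts have 1485 bases for Pdhb and 2848 for Pdha1, and by counts Pdha1 was slightly higher, with 22378 and 18038 against 22214 and 16664. Per length, Ldha RNA exceeded that of Pdha1 by 8.69-fold and 9.69-fold and that of Pdhb by 4.45-fold and 5.32-fold.

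The 4 Pdk kinases switch the complex off by phosphorylating Pdha1. Pdk2, the widely expressed form, had 94.8 and 96.1 TPM, Pdk3 80.5 and 78.1 TPM, and Pdk1, a target of hypoxia signalling, 79.2 and 70.6 TPM. Pdk4, the form induced by fasting and fatty acids in adult heart, was lowest with 25.6 and 22.1 TPM. Pdk3 lay above Pdk1 in both libraries, with 79.3 ± 1.68 and 74.9 ± 6.05 TPM (SD, n = 2), a difference smaller than the spread of Pdk1 though not than that of Pdk3. On coding transcripts Pdk3 was at 79.2 ± 1.56 TPM and Pdk1 at 58.75 ± 0.396 TPM, a difference larger than either spread. Pdk4 lay below Pdk2 by 3.70-fold and 4.35-fold. Counts gave another leader, Pdk1 with 43.8% and 43.0% of the counts of the kinases, as its main transcript is 5185 bases long. The opposing phosphatases Pdp1 and Pdp2 were at 11.7 and 12.1 TPM and at 6.37 and 7.75 TPM.

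**Figure D4:**
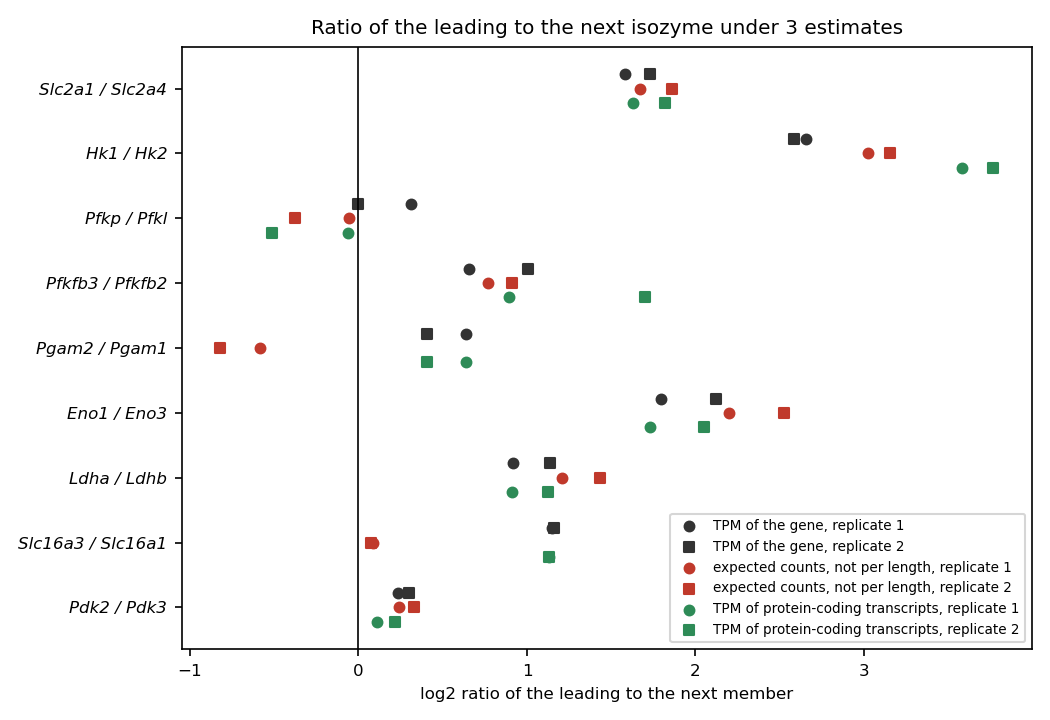
Log2 ratio of the leading to the next isozyme at 9 steps from gene TPM (black), expected counts without division by length (red) and TPM of protein-coding transcripts (green), with circles for replicate 1 and squares for replicate 2. Aldolase and pyruvate kinase, with log2 ratios of 6.31 and 12.7, are not drawn; only Pfkp over Pfkl and Pgam2 over Pgam1 cross 0.

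Of the 11 steps with isozymes, 10 had the same leading gene in both libraries, phosphofructokinase being the exception. In 10 of the 38 genes, protein-coding transcripts held under 80% of the TPM in at least 1 library. These were Hk2, Hk3, Pfkp, Pfkfb1, Pfkfb2, Pfkfb3, Gapdh, Eno2, Pdk1 and Dlat. For Dlat the noncoding Dlat-202, of 770 bases, held 24.3% and 21.3% of TPM and 5.41% and 4.596% of counts.

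After TMM scaling, a scaling that centres the bulk of genes, 37 members, all but Pklr, had at least 10 counts in both libraries. None of these was higher in replicate 2 by 1.5-fold, against 11.2% of 17029 genes, and none was lower by 1.5-fold, against 4.74%. The share of all genes falls with depth: at 100 counts or more it was 4.26% higher and 2.53% lower, of 12625 genes. With so few members, none past the fold says little about the pathway. The lowest log2 ratio was that of Eno3, at −0.57, followed by Pdk4 at −0.53, and the highest that of Eno2, at 0.32. Of the 37, 28 lay below 0 and 9 above, with a median of −0.27. The 1141 protein-coding genes at or above the members' median level had a median of −0.25, so a small shift below 0 was shared by abundant genes. For these 1141 genes the 95th percentile of the absolute log2 ratio was 0.693, against 1.154 for all genes tested. All 9 members above 0 had a mean of 20.3 TPM or less. The cardiomyocyte list had a median log2 ratio of −0.41 in the same direction, and its part in the members' shift was not tested. Scaling by spike-ins, which held 1.58% and 3.13% of the counts, moved the median of all genes to −0.93 and put all 37 members lower by 1.5-fold or more, as it did 81.6% of genes; the members' median was then −1.19.

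**Figure D5:**
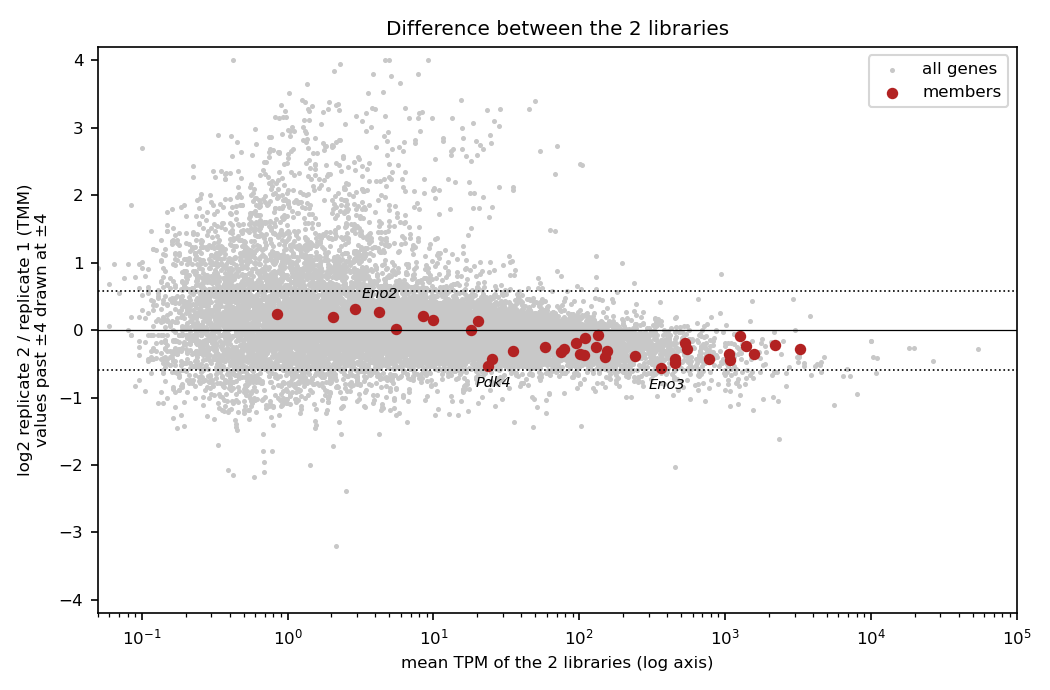
Log2 ratio of replicate 2 to replicate 1 after TMM scaling (values past 4 in size are drawn at that limit) against mean TPM (log axis), for all genes with 10 counts in both libraries (grey) and for 37 members (red); dotted lines mark 1.5-fold. Every red point lies between the dotted lines.

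Among the 43 further genes of the pathway, 23 were detected in both libraries and 32 had 10 counts in both. Of the 32, 5 were higher in replicate 2 by 1.5-fold, against 11.2% of all genes tested, and 3 were lower, against 4.74%. Those higher included the gluconeogenic Fbp1 (log2 ratio 4.25, 0.670 and 8.60 TPM), Hkdc1 (1.11) and Slc2a9 (0.72). Those lower were Mpc2 (−0.76), Dld (−0.59) and Slc16a8 (−0.63). They are named for completeness and were picked by their values. Fbp1, known from liver and kidney, was higher in the library with more liver marker RNA, and the part of liver cells in its value was not tested. Pgk2, Ldhal6b and Pdha2, copies known from testis, and G6pc, which releases glucose from liver, had 0 counts in both libraries, which at an effective length of 1 kb allows up to 0.0924 and 0.103 TPM.

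Regulators of the pathway, from oxygen sensing to energy sensing, were mostly present. Of 20, 19 were detected in both libraries, against 58.2% of protein-coding genes. None of the 20 was higher or lower by 1.5-fold, against 11.2% and 4.74% of all genes tested, and with so few genes this says little about the list. Txnip, which limits glucose uptake, was highest with 172 and 169 TPM, and Ppard was lowest with 0.930 and 1.12 TPM. Hif1a, the oxygen-regulated factor known to induce many of the members, was at 87.3 and 82.6 TPM.

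Sequence around start sites was examined for the core of the HIF response element, ACGTG, on both strands. RefSeq start windows, of 250 bases before to 50 after a start, were at hand for 36 of the 38 genes. At least 1 match was found for 19 of the 36 (52.8%), against 21.8% of 27025 genes and 29.3% of 9789 detected protein-coding genes. Some genes have several windows, and by window the share was 41.1% of 56, against 19.6% of all 32851 windows and 25.2% of those of detected coding genes. The palindrome CACGTG, which contains ACGTG on both strands and is read by other factors, was found for 6 members (16.7%, against 8.09% of genes and 11.7% of detected coding genes). GGGCGG, the GC box, was found for 63.9% of members, against 69.7% of detected coding genes. The median GC content of the windows was 58.3% for members and 60.7% for detected coding genes. A match of 5 letters is a description of the sequence and shows no binding. The lactate dehydrogenase pair, picked after its matches were seen, is shown because its members lie at the extremes: the 250 bases before the start are given for Ldha (chr7:46845554-46845803, plus strand) and Ldhb (chr6:142507958-142508207, minus strand) on GRCm38.p6, from RefSeq, with matches in capitals.
Ldha upstream: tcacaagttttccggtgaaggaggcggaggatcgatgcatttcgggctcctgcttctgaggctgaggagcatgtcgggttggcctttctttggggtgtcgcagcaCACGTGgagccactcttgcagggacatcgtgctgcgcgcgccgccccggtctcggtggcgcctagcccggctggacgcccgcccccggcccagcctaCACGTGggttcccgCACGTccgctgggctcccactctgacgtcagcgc
Ldhb upstream: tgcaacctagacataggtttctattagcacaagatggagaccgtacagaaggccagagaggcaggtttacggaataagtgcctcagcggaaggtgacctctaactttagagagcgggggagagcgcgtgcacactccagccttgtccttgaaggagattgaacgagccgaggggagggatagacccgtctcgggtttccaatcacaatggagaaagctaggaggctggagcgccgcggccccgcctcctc
In the Ldha stretch, 3 sites begin 145, 48 and 34 bases before the start, and the first and second of these are the palindrome. A second RefSeq start of Ldha, and the Ldhb start, hold no match in their windows. The other members with matches were Slc2a1, Hk1, Hk2, Hk3, Pfkm, Pfkfb2, Pfkfb3, Aldoa, Aldoc, Gapdh, Pgk1, Pgam1, Pkm, Slc16a1, Slc16a3, Pdk2, Pdk3 and Pdhb. In Gapdh, Hk1 and Aldoc the matches lie only after the start. No match was found for Slc2a8, Gpi1, Pfkl, Pfkp, Pfkfb1, Pfkfb4, Tpi1, Eno1, Eno2, Eno3, Pgam2, Pklr, Ldhb, Pdk1, Pdk4, Pdha1 and Dlat.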

How the data were processed

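RNA-seq of whole mouse hearts at embryonic day 15.5 was used as 2 libraries of 1 group, from pools of 78 and 62 embryos. Extraction used mirVana, and a SMARTer Ultra Low kit manual is linked, per the labels' protocols. That kit primes on poly(A) tails, whereas the molecule is labelled total RNA; how far priming affected values that depend on transcript length was not tested. Genes and transcripts were quantified by the authors on mm10 and GENCODE M4, per the file headers. The aligner, the quantifier and any use of strand were not given in the sources used here. Expected counts, as deposited, estimate the reads of each gene or transcript, with shared reads divided between genes and no normalization. The deposited TPM are these counts per effective length (length minus 99 bases), scaled to a fixed sum per library. The deposited percent gives each transcript's share of its gene's TPM. Strand matters for genes that overlap others.

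Symbols, biotypes and exon positions came from GENCODE M21 by stable identifier. The members and all lists were chosen with earlier results of these data known. Named are all 38 members and, from each other list, the genes with the most and the least mean TPM plus those a member's result needs; other names were chosen after their values were seen, and some genes of the lists are not reported here by name. Values are given per library or as mean ± SD (n = 2). No test was run: with 1 group of 2 libraries, the smallest p of an exact sign-flip test is 0.5. Shares and ratios were formed within each library. For the comparison of libraries, expected counts were scaled with TMM factors from edgeR 4.0.16 (R 4.3.3), with a minimum of 10 in each library. Counts were rounded to whole numbers to derive the factors, and the ratios used unrounded counts. A gene past 1.5-fold was called, and the computation was checked on simulated counts. DESeq2 1.42.0 size factors, total counts, spike-ins and deposited TPM were alternatives. Spike-ins and features without an Ensembl identifier stayed out of library sizes. Pseudogene copies were found with blastn 2.17.0 (at least 90% identity over 200 bases and 50% of the copy). Counting intervals are exact at 95%, and the floor for a count of 0 is 3 counts; both are limited to counting error, as no molecular identifiers are named for these reads.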

Additional observations from a re-analysis of the deposited data

How the results depend on the processing

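No paired analysis was possible because there is 1 group of 2 libraries. Of 77 log2 ratios of the leading to the next isozyme that were recomputed, 4 changed sign. Pfkp to Pfkl became −0.22 with expected counts without division by length, −0.29 with protein-coding transcripts and ran from −0.00133 without replicate 1 to 0.3098 without replicate 2. Pgam2 to Pgam1 became −0.70 with expected counts without division by length; here the ratio follows from the unequal transcript lengths. By counts Pdk1 also replaced Pdk2 as the leading kinase, so phosphofructokinase, phosphoglycerate mutase and the Pdk kinases have no leader that holds under every estimate.

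The number of detected members, 36, ranged from 33 at 5 TPM to 37 at 0.1 TPM or with the posterior mean. The main leader held in both libraries at 10 of 11 steps, and this number ranged from 8 with counts to 11 with the posterior mean. The M2 share of Pkm ranged from 26.2% to 32.2% when 1 library was left out. The number of members past 1.5-fold between the libraries was 0 by TMM, total counts and DESeq2 size factors, at 100 counts or more and at 2-fold. It was 37 with spike-in scaling, all 37 lower in replicate 2. It was 1 with the deposited TPM (Eno2) and 1 with no filter on counts (Pklr), each higher in replicate 2. The median of all genes, −0.02 by TMM, was 0.16 by total counts and 0.21 by deposited TPM, and members below 0 numbered 25 and 21 there.

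Depth limits Hk3, Eno2, Pklr and the Pfkfb genes, whose counts ran from 6 to 934.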

Other observations

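The genes below, of glycogen and of pyruvate and pentose metabolism, were chosen after their values were seen. Pygm, the muscle glycogen phosphorylase, stood at 246 and 232 TPM in replicates 1 and 2, Pygb, the brain form, at 176 and 193 TPM, and Pygl, the liver form, at 37.2 and 35.6 TPM. Pygm and Pygb were thus close to each other and above the liver form in both libraries. Gys1, the muscle glycogen synthase, had 91.7 and 93.3 TPM, while the liver form Gys2 had 0.0200 and 0.130 TPM. Bpgm, which makes 2,3-bisphosphoglycerate in red cells, was at 90.3 and 101 TPM, beside erythroid markers that summed to 121700 and 116800 TPM. G6pdx, the entry of the pentose phosphate pathway, had 12.6 and 17.5 TPM. Pcx, which carboxylates pyruvate in mitochondria, was at 8.70 and 13.3 TPM, and Pck2, the mitochondrial form of its gluconeogenic partner, at 19.6 and 22.2 TPM, whereas the cytosolic form Pck1 had 0.0800 and 0.130 TPM.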
